A study of Mus musculus with 20 samples.

Results

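Hearts of Dp1TybDyrk1a+/+/- mouse embryos were compared with WT hearts at E13.5 by mRNA sequencing, to ask what a duplication of chromosome 16 genes still changes when Dyrk1a is at 2 functional copies. The 5 hearts labelled Dp1TybDyrk1a+/+/- and the 10 labelled WT were taken, 15 of the 20 hearts of the series. The other 5 hearts were Dp1Tyb, with the duplication and 3 functional copies of Dyrk1a, and served for comparison. Dp1Tyb mice carry a tandem duplication of the part of mouse chromosome 16 that is orthologous to human chromosome 21, from Lipi to Zbtb21. These genes lie between 75540514 and 97962627 on chromosome 16 of GRCm38.p6, and are called three-copy genes here. Dp1TybDyrk1a+/+/- mice carry the same duplication and a Dyrk1a allele with a deletion on the same chromosome, from a single crossover pup bred on as its own strain. All 3 genotypes were on the C57BL/6J background, each library was made from the heart of 1 embryo, and the labels name no treatment. The study used WT littermates as controls, and since no litter is labelled, all 10 WT hearts were used.

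Trisomy of human chromosome 21 causes Down syndrome, in which heart defects are common, and mice with an extra copy of the orthologous genes model them. DYRK1A is a protein kinase that acts on cell cycle regulators, splicing factors and NFAT transcription factors. Among the other three-copy genes are those of the type I, type II and interleukin-10 family interferon receptor chains, which switch on interferon-stimulated genes, and App, Sod1, Hmgn1 and Ets2.

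Values are deposited log2 normalized counts, on a scale that draws weakly expressed genes together, so that their fold changes are understated. The depth of each library is unknown. A gene was tested where its mean normalized count over 20 hearts was at least 10, and it was called at a Benjamini-Hochberg adjusted P-value under 0.05 (limma, 1 mean per genotype, all 20 hearts in the fit). P-values measure the spread between embryos. Heart A15 of the Dp1TybDyrk1a+/+/- group stood apart, so that the fit was made with and without it. A single log2 fold change given with no mention of A15 is from the fit of all 20 hearts. A15 was the highest or the lowest of the 15 hearts at 52.2% of the 15304 genes tested, against 5.68% to 16.2% in the other 14. It lay over 0.5 log2 units from the mean of the other 4 Dp1TybDyrk1a+/+/- hearts at 489 genes, compared to 35 to 50 genes for each of these 4. WT heart A10 came next, with 112 genes over 0.5 from the other WT hearts. The mitochondrially encoded protein genes made up 8.73% of all normalized counts in A15 and 6.35% in A10, and 4.07% to 4.83% in the other 13 hearts. Expression of Xist and of Y-linked genes put 1 of 5 Dp1TybDyrk1a+/+/- hearts (A14) and 3 of 10 WT hearts in the female pattern. Most Dp1Tyb hearts were in it too, with Xist at 13.38, 12.98, 13.07 and 13.26 in A12, A3, A4 and A7. Xist was at 7.89 in A6, the other Dp1Tyb heart. The comparisons with Dp1Tyb hearts given here are not adjusted for embryo sex. Lanes 3, 6 and 7 of the sequencer held 1, 1 and 3 Dp1TybDyrk1a+/+/- hearts and 4, 4 and 2 WT hearts.

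Cardiomyocyte markers were present in every heart, with summed normalized counts over 22 genes of 664000 in A15, 637000 to 691000 in the other 4 Dp1TybDyrk1a+/+/- hearts and 582000 to 761000 in WT hearts. Markers of neighbouring lung and foregut epithelium were also detected, at much lower levels: their sum over 7 genes was 500 in A15, 282 to 353 in the other 4 hearts and 292 to 573 in WT hearts. In whole hearts, fewer cells of a type and less RNA per cell cannot be told apart.

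The first check was Dyrk1a itself (ENSMUSG00000022897, chr16:94569947-94695519 of GRCm38.p6). Its log2 value was 11.70, 11.85, 11.78, 11.75 and 11.74 in Dp1TybDyrk1a+/+/- hearts A14, A15, A17, A18 and A9, and 11.28, 11.36 and 11.43 at the lowest, the median and the highest of the 10 WT hearts. All 5 Dp1TybDyrk1a+/+/- hearts were thus above every WT heart. The log2 fold change was 0.395 ± 0.027 (SE), 1.31-fold (limma adjusted P-value 2.18e-09; exact two-sided permutation test, p = 0.000333, the smallest this design allows), and 0.373 without A15 (adjusted P-value 2.05e-09). The values count transcripts of all alleles of a gene together, those of the deleted allele included, so that they do not measure functional copies. Between the Dp1TybDyrk1a+/+/- and Dp1Tyb hearts, the Dyrk1a level differed by 0.07 on the log2 scale (adjusted P-value 0.209).

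The three-copy genes as a group were increased. Of 95 tested, 69 were called and all 69 were higher than in WT hearts, while 0.712% of all 15304 genes tested were called. Of the 26 three-copy genes that were not called, 8 had a log2 fold change of 0 or below. The median log2 fold change of the 95 genes was 0.328, 1.26-fold, compared to -0.003 for the 15209 genes outside the region. Taking each heart on its own against the WT mean, the median over three-copy genes was 0.292 in A14, 0.273 in A15, 0.313 in A17, 0.316 in A18 and 0.307 in A9, and it ran from -0.004 to 0.011 in the WT hearts. The region therefore gave the same reading in all 5 hearts, A15 included. Within lanes 3, 6 and 7 the median difference was 0.290, 0.311 and 0.305.

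Without A15 the number of three-copy genes called was again 69, of which 68 were called in both fits, against 0.908% of all genes. The level of a gene went along with its call. Genes were classed by the normalized count that their mean log2 value stands for. Of 24 three-copy genes at a count of 10 to 100, 3 were called, with a median log2 fold change of 0.0445. Of 38 genes between 100 and 1000, 34 were called with a median of 0.329, and of 33 genes of at least 1000, 32 were called with a median of 0.382. The median fold of the last class was 1.3, below the ratio of 1.5 that 3 copies against 2 would give. Whether the scale also understates fold changes of strongly expressed genes was not tested, so this value is not read as a shortfall from the copy ratio. In single Dp1Tyb hearts against the WT mean, the median over all tested three-copy genes was similarly low, at 0.276 to 0.320. For Dp1Tyb hearts the paper reports an increase of these genes close to the copy ratio. The remaining 137 three-copy genes of the table did not reach the count minimum, and 79 of them were at 0 in every heart.

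**Figure D1:**
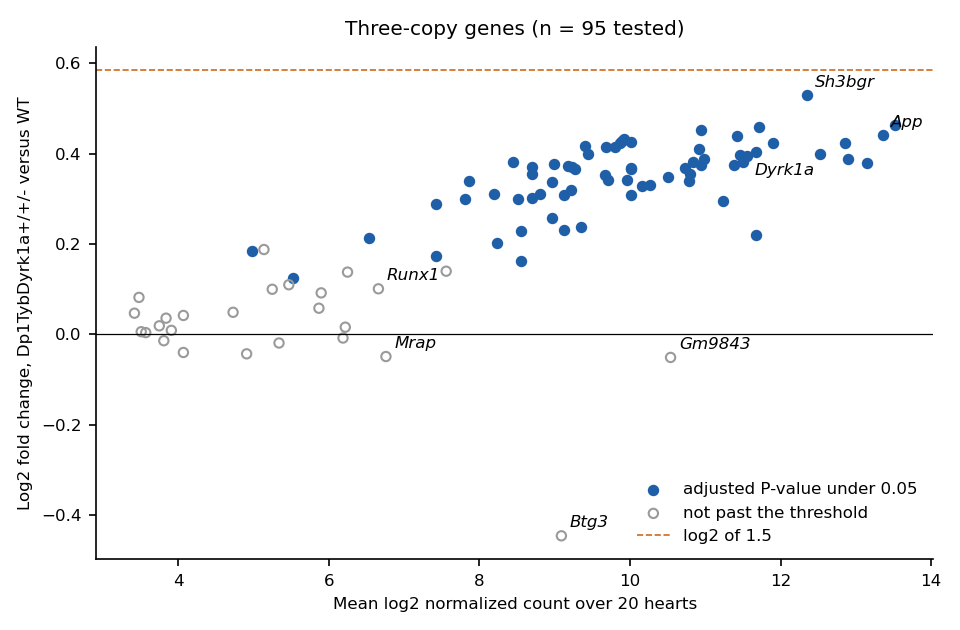
Log2 fold change of the 95 tested three-copy genes in Dp1TybDyrk1a+/+/- compared to WT hearts (y axis) against the mean log2 normalized count over 20 hearts (x axis). Filled points passed the threshold, open points did not, and the dashed line marks the log2 of 1.5. Of the 33 genes whose mean log2 value stands for a count of 1000 or more, 32 passed the threshold and Gm9843 lies at -0.05. Many weakly expressed genes lie near 0, and Btg3 lies below all others at -0.45.

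The called three-copy genes ranged from 0.125 for Samsn1 to 0.53 for Sh3bgr, and 65 of the 69 were at 0.2 or above. Sh3bgr, a small heart and muscle protein gene, was at 12.64, 12.39, 12.72, 12.73 and 12.75 in A14, A15, A17, A18 and A9, and at 11.94, 12.15 and 12.25 at the lowest, median and highest WT heart. Its A15 value was below those of the other 4 and above all WT hearts. Its log2 fold change was 0.53 ± 0.053 with A15 and 0.59 without (adjusted P-values 8.18e-07 and 5.06e-09). Next came Son, a splicing cofactor (0.46), Cxadr, the coxsackievirus and adenovirus receptor of cell junctions (0.46), Ifnar1, a chain of the type I interferon receptor (0.45), and App, the amyloid precursor protein (0.44). Gabpa, an ETS transcription factor, and Tiam1, a Rac exchange factor, increased by 0.44 and 0.43. Mrpl39 of the mitochondrial ribosome, Tmem50b and Hmgn1, a nucleosome-binding protein, increased by 0.43, 0.43 and 0.42.

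A15 shifted the group mean at some of these, in both directions, though Hmgn1 and Gabpa were called with and without it. Hmgn1 was at 12.78 in A15 and at 13.11 to 13.22 in the other 4 hearts, with WT hearts at 12.50 to 12.71. Gabpa was at 11.85 in A15 and at 11.63 to 11.64 in the other 4, with WT hearts at 11.18 to 11.39. Over the 95 genes, A15 was below the other 4 hearts at 31 genes and above them at 41. It was above every WT heart at 65 of the 69 called genes.

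Of the three-copy genes that were not called, the 5 most strongly expressed were Gm9843, Btg3, Kcnj15, Mrap and Runx1. Kcnj15, a potassium channel, and Runx1, a transcription factor of blood formation, had log2 fold changes of 0.14 and 0.10 (adjusted P-values 0.213 and 0.569). Gm9843 was at -0.05 with A15 and 0.04 without (adjusted P-values 0.848 and 0.827).

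Mrap, which codes for the accessory protein of the melanocortin 2 receptor, had the smallest adjusted P-value among three-copy genes in the comparison with Dp1Tyb hearts. It was at 6.69, 6.67, 6.66, 6.65 and 6.69 in the 5 Dp1TybDyrk1a+/+/- hearts A14, A15, A17, A18 and A9, and at 6.64, 6.72 and 6.78 at the lowest, median and highest WT heart. The 2 groups overlapped, whereas the 5 Dp1Tyb hearts were at 6.88 to 7.0, above all of these. The log2 fold change was -0.05 in Dp1TybDyrk1a+/+/- and 0.20 in Dp1Tyb compared to the same WT hearts (adjusted P-values 0.555 and 3.24e-05). The difference between the duplication genotypes was -0.25 (adjusted P-value 0.000523, and 0.00096 without A15). Clic6, of the chloride intracellular channel family, was the other three-copy gene called in this comparison, at -0.17 (adjusted P-value 0.046), so that 2 of 95 three-copy genes differed, while 1.16% of all genes did. Without A15 the count was 3 of 95, against 1.31% of all genes, with Sh3bgr as one of them (adjusted P-value 0.0457).

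Btg3 was the only three-copy gene tested that was far below WT, and its value is tied to a second gene. Btg3 is an antiproliferative member of the BTG/TOB family. The gene with the largest increase outside the three-copy region, Gm7334 on chromosome 17, is annotated as a processed pseudogene. Its 756-base transcript is identical at all 756 positions to the coding sequence of Btg3 without the stop codon, which is 19.2% of the 3941-base Btg3 transcript. Gm11966 on chromosome 11, another processed pseudogene and among the 3 largest increases called with and without A15 outside the region, is identical over all its 87 bases to coding positions 241 to 327 of the three-copy gene Atp5pf, a subunit of ATP synthase. The first 120 bases of the Btg3 pair, with the start codon in capitals, and the 87 bases of the Atp5pf pair, with the stop codon in capitals, are shown from GENCODE M39 transcripts because a read from such a stretch matches both genes equally well.
Btg3: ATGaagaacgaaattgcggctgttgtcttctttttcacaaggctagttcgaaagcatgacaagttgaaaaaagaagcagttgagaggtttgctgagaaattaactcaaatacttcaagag
Gm7334: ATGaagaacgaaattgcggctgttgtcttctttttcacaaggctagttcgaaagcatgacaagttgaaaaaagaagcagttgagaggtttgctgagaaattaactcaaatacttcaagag
Atp5pf: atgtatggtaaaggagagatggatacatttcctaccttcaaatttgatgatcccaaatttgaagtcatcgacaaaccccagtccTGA
Gm11966: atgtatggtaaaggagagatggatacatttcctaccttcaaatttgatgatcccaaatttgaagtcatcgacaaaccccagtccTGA

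Btg3 was at 8.73, 8.59, 8.58, 8.62 and 9.34 in A14, A15, A17, A18 and A9, and at 8.96, 9.16 and 9.46 at the lowest, median and highest WT heart. Gm7334 was at 9.22, 9.35, 9.34, 9.32 and 8.85 in the same hearts, and at 7.29, 8.0 and 8.41 in WT. Heart A9, which was high for Btg3, was low for Gm7334. The log2 fold changes were -0.45 for Btg3 (adjusted P-value 0.0582) and 1.28 for Gm7334 (adjusted P-value 9.59e-06). When the normalized counts of both genes were added in each heart, the log2 of the sum was 10.03 ± 0.05 (SD, n = 5) in Dp1TybDyrk1a+/+/- and 9.73 ± 0.061 (SD, n = 10) in WT hearts. The WT sums ran from 9.63 to 9.82, all Dp1TybDyrk1a+/+/- sums were above these with a highest of 10.12, and the means differed by 0.29 on the log2 scale, 1.23-fold. This sum was chosen after the values were seen, so it is given as a description with no P-value. The log2 fold change of Atp5pf was 0.42 and that of Gm11966 was 0.30. How the shared reads were divided between the members of either pair was not tested. Gm7334 and Gm11966 are therefore not read as evidence of a change outside the duplicated region. Both are still included in the counts of genes called outside the region that follow.

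**Figure D2:**
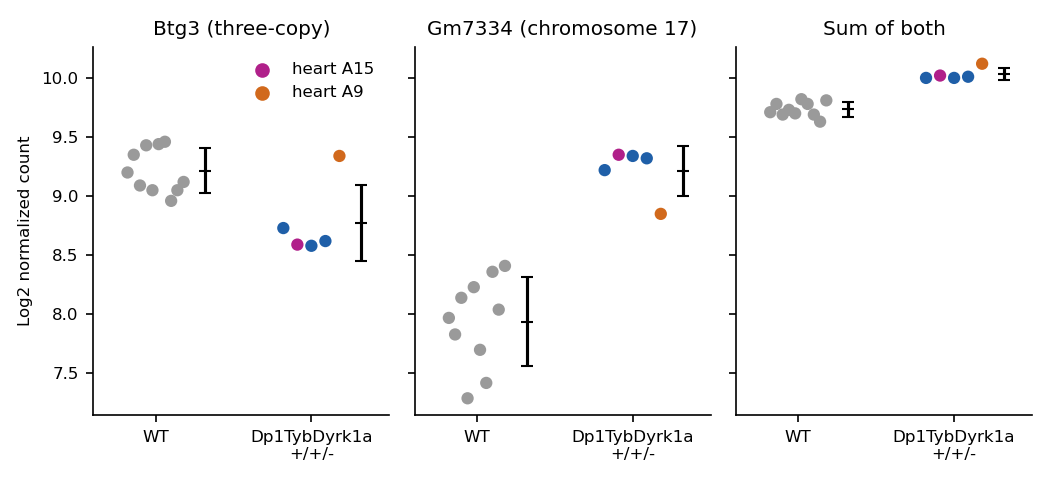
Log2 normalized counts of Btg3, of its identical pseudogene Gm7334 and of their sum in each WT (n = 10) and Dp1TybDyrk1a+/+/- heart (n = 5), with the mean and SD at the right of each group. Btg3 is below every WT heart in 4 of the 5 Dp1TybDyrk1a+/+/- hearts and Gm7334 is above every WT heart in all 5, A9 lies apart from its group for both genes, and the sums of both groups do not overlap.

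Outside the three-copy region, few genes differed and the changes were small. Of 15209 genes tested, 27 were increased and 13 decreased in Dp1TybDyrk1a+/+/- compared to WT hearts, 0.178% and 0.0855%; with each heart centred on its median the split was 32 to 9. Without A15 the numbers were 46 and 24, 0.302% and 0.158%. In both fits 29 genes were called, 21 increased and 8 decreased, while 11 were called with A15 alone and 41 without A15 alone. Of the 29 genes, 26 changed by less than 1.2-fold. The others were the pseudogenes Gm7334 and Gm11966, at 2.42-fold and 1.23-fold, and Vwf, at 1.25-fold. The 5 Dp1TybDyrk1a+/+/- hearts did not overlap with the WT hearts at 13 of the 29 genes, and at 0.23% of all genes outside the region. For comparison, 2.62% of these genes were called between Dp1Tyb and the same WT hearts. The count outside the region rested on single hearts: it was 22 without A17 and 89 without A10, and with lane in the fit it was 26.

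Genes of the vessel lining were among the increases seen with and without A15. Vwf (ENSMUSG00000001930, chr6:125552948-125686679), which codes for von Willebrand factor, the platelet-binding glycoprotein of endothelium, had the largest increase besides Gm7334. It was at 10.60, 10.46, 10.45, 10.52 and 10.47 in A14, A15, A17, A18 and A9, and at 9.92, 10.21 and 10.26 at the lowest, median and highest WT heart. No Dp1TybDyrk1a+/+/- heart overlapped with WT, and A15 lay within the other 4. The log2 fold change was 0.326 ± 0.05, 1.25-fold, with A15 and 0.335, 1.26-fold, without (adjusted P-values 0.000502 and 0.00091). Lowest among WT hearts was A10, at 9.92, and with A10 left out together with A15 or alone the gene was still called.

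Entpd1 (ENSMUSG00000048120, chr19:40612366-40741602), the CD39 enzyme that breaks down extracellular ATP, was at 9.35, 9.35, 9.28, 9.32 and 9.29, and at 9.05, 9.06 and 9.24 in WT. These hearts did not overlap either, and the log2 fold change was 0.23 ± 0.03, 1.18-fold (adjusted P-value 3.62e-05, and 0.000158 without A15). Mmrn2, an extracellular matrix protein of endothelium, was at 10.56, 10.49, 10.57, 10.68 and 10.64, with WT hearts at 10.31, 10.44 and 10.55. A15 was within the WT range, and the log2 fold change was 0.15 with A15 and 0.17 without (adjusted P-values 0.0289 and 0.00542). It was not called with lane in the fit (adjusted P-value 0.14).

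The endothelial lectin Clec14a and Calcrl, the receptor for adrenomedullin, increased by 0.14 and 0.13 (adjusted P-values 0.0222 and 0.0317), and with lane in the fit neither was called. Of 19 two-copy endothelial and endocardial markers tested, 2 were called, Vwf and Mmrn2, against 0.178% of all genes outside the region increased, and the median log2 fold change was 0.051 with A15 and 0.033 without. In each fit 6 of the 19 had an unadjusted P-value under 0.05, compared to 9.16% of all genes outside the region with A15 and 12.3% without. Above 0 were 13 of the 19 with A15 and 14 without, and the others went the other way. Relative to the WT mean, the list median was -0.004 to 0.059 in the Dp1TybDyrk1a+/+/- hearts, all within the WT range of -0.064 to 0.071. Pecam1, the CD31 adhesion molecule, was at 0.07 and Cdh5, VE-cadherin, at 0.09 (adjusted P-values 0.486 and 0.547). Of 14 haemostasis and vessel genes, Vwf and Entpd1 were called, and Icam1, a leukocyte adhesion molecule, was called without A15 alone (0.135, adjusted P-value 0.0247). Of these 14, 6 with A15 and 5 without had an unadjusted P-value under 0.05. Many of the genes in both lists thus had small unadjusted P-values while few passed the adjustment.

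Several increased genes are not known as vessel genes. Tnni2, the fast skeletal muscle form of troponin I, was at 8.15, 8.13, 8.21, 8.25 and 8.28 in A14, A15, A17, A18 and A9, and at 7.82, 7.96 and 8.18 in WT, with a log2 fold change of 0.25 (adjusted P-value 0.021). Ppp1r17, an inhibitor of protein phosphatases, was at 7.54, 7.54, 7.69, 7.60 and 7.58, and at 7.22, 7.34 and 7.53 in WT, with a log2 fold change of 0.24 (adjusted P-value 0.00224). Mal, a lipid raft protein, and Heph, a copper-dependent ferroxidase on the X chromosome, increased by 0.21 and 0.18 (adjusted P-values 0.000378 and 0.000212), and their hearts did not overlap with WT. The log2 fold changes of Fibp, Ache, Chml and Zfp979 were between 0.14 and 0.17. Ache codes for acetylcholinesterase, and Chml for a Rab escort protein. With lane in the fit Ache and Chml were not called (adjusted P-values 0.0524 and 0.0615). The smallest increases called in both fits included Ggta1, Pspc1, Hexa and Eif5a2, from 0.10 to 0.12. With lane in the fit Pspc1 and Eif5a2 were not called (adjusted P-values 0.143 and 0.086), and neither was the decreased gene Farsa (0.0986), so that 20 of the 29 genes were.

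The 8 genes that decreased with and without A15 included Gm8113, Rbm3, Igfbp2, Usp11, Kit, Kalrn and Farsa, with log2 fold changes from -0.17 to -0.10. Usp11, a deubiquitinase gene on the X chromosome, was at 10.17, 10.26, 10.14, 10.12 and 10.16 in A14, A15, A17, A18 and A9, and at 10.29, 10.33 and 10.40 in WT. No heart overlapped, and the log2 fold change was -0.16 with A15 and -0.18 without (adjusted P-values 0.000502 and 2.8e-05). Rbm3, an RNA-binding protein that is induced by cold, was at 11.99, 11.96, 12.15, 12.07 and 12.11, below the WT hearts at 12.16 to 12.28, with a log2 fold change of -0.17 (adjusted P-value 0.00688). It was the only one of 14 cold-inducible and heat shock genes tested that was called. Of all genes outside the region, 0.0855% were decreased with A15 and 0.158% without. At an unadjusted P-value under 0.05 (limma) there were 1 of the 14 with A15 and 3 without, against 9.16% and 12.3% of all genes outside the region. Since Usp11, Rbm3 and Heph lie on the X chromosome, a fit with the level of Xist was made, and all 29 genes were called in it. Kit, a receptor tyrosine kinase, and Kalrn, a guanine nucleotide exchange factor gene on chromosome 16 outside the duplication, fell by 0.13 and 0.11 (adjusted P-value 0.0293 for both). Kit, Kalrn and Mmrn2 were called in 14, 16 and 19 of 27 settings tried, and they lost the call when A17, A18 or A9, or certain WT hearts, were left out one at a time. Tnni2, Lgals9, Ache, Farsa and Igfbp2 lost it without A17, with adjusted P-values of at most 0.129 over all settings. Gm8113 resembles 19 other genes over at least 80 bases at 95% identity, so that its reads cannot be assigned with certainty. The same search found 99.8% identity between Gbp6 and Gm43302. Among other named genes it found shared stretches for Rbm3 (592 bases at 99.66%) and Zfp979 (507 bases at 95.27%). Chml shared 635 bases at 100% with Opn3, and Eno1 shared 1480 bases at 99.39% with Eno1b.

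**Figure D3:**
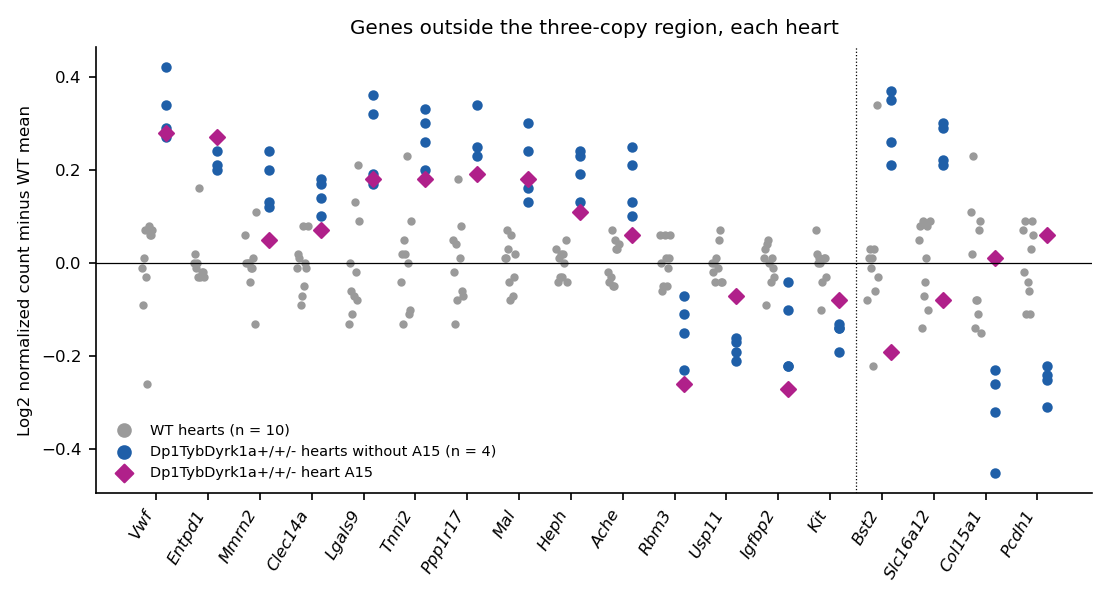
Log2 normalized count minus the WT mean in each WT heart, in 4 Dp1TybDyrk1a+/+/- hearts and in heart A15 (diamond), for 14 genes called with and without A15 (left of the dotted line) and 4 genes called without A15 alone (right). Of the first 14 genes, A15 lies within the WT range at Mmrn2, Clec14a, Lgals9, Tnni2, Ache and Kit and beyond it at the others. It also lies within the WT range at Bst2, Slc16a12, Col15a1 and Pcdh1. Both sets were chosen by their calls with and without A15, which largely fixes where A15 lies.

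The 41 genes called without A15 alone were selected by leaving A15 out, which largely fixes that A15 lies toward WT at them and that the other 4 hearts lie away from it. As a description, A15 was on the WT side of the mean of the other 4 hearts at all 41 and within the WT range at 21, and the 4 other hearts did not overlap with WT at 26, compared to 0.881% of all genes outside the region. Slc16a12, a monocarboxylate transporter, was at 9.77 in A15 and 10.06, 10.15, 10.07 and 10.14 in A14, A17, A18 and A9, with WT at 9.71, 9.88 and 9.94. Its log2 fold change was 0.18 with A15 and 0.25 without (adjusted P-values 0.148 and 0.00052). Pcdh1, a protocadherin, was at 8.73 in A15, at 8.36 to 8.45 in the other 4 and at 8.56, 8.67 and 8.76 in WT, and its log2 fold change was -0.19 with A15 and -0.25 without (adjusted P-values 0.0774 and 0.0002). Col15a1, a basement membrane collagen, went from -0.24 to -0.31 (adjusted P-values 0.123 and 0.00872). H1f10, a linker histone, was at -0.14 with A15 and -0.19 without (adjusted P-values 0.205 and 0.00253). The other increases called without A15 alone included Bst2, Gbp6, Tmem278 and S100a9.

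Of the 11 genes called with A15 alone, Eno1, a glycolytic enolase, had the largest change. It was at 13.74, 13.55, 13.78, 13.87 and 13.73 in A14, A15, A17, A18 and A9, and at 13.84, 13.90 and 14.04 in WT, so that A18 was in the WT range and A15 was lowest. The log2 fold change was -0.19 with A15 and -0.14 without (adjusted P-values 0.0468 and 0.0996). None of the other 19 glycolysis enzymes was called by limma, and 2 of all 20 had an unadjusted P-value under 0.05, compared to 9.16% of all genes outside the region. Slc40a1, the iron exporter ferroportin, and H6pd were at -0.155 and -0.151 with A15 (adjusted P-values 0.0351 and 0.0463) and were not called without it.

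**Figure D4:**
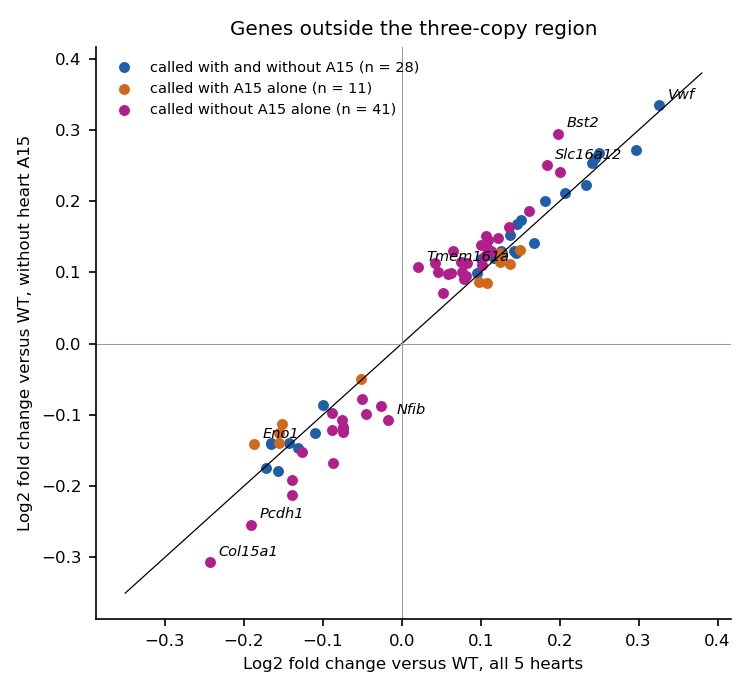
Log2 fold change compared to WT without heart A15 (y axis) against the value with all 5 Dp1TybDyrk1a+/+/- hearts (x axis) for 80 of the 81 genes outside the three-copy region called in either fit; Gm7334, at 1.28 and 1.24, is left out. The line marks equal values, and genes called without A15 alone lie farther from 0 on the y axis than on the x axis.

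All 4 interferon receptor genes of the duplication were increased in both fits. Ifnar1 was at 11.15, 11.31, 11.10, 11.13 and 11.17 in A14, A15, A17, A18 and A9, and at 10.65, 10.72 and 10.76 in WT, with a log2 fold change of 0.45 (adjusted P-value 7.33e-10). Ifnar2, the other type I receptor chain, Ifngr2, the second chain of the type II receptor, and Il10rb, shared by interleukin-10 and lambda interferon receptors, were at 0.37, 0.39 and 0.40. Mx2, an interferon-induced GTPase that is itself a three-copy gene, was at 0.184 with A15 and 0.215 without (adjusted P-values 0.042 and 0.0109).

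Two-copy interferon-stimulated genes were mostly on the higher side of WT, but few passed the test. Of 39 tested, 0 were called with A15 (limma) and 1 was called without it, Bst2. Their median log2 fold change was 0.090 with A15 and 0.114 without, compared to -0.003 and -0.001 for all genes outside the region. In either fit 37 of 39 were above 0, compared to 47.1% of all genes outside the region with A15 and 48.8% without. At an unadjusted P-value under 0.05 there were 24 of the 39 with A15 and 27 without, against 9.16% and 12.3% of all genes outside the region. The genes of such a list vary together between hearts. The median over the list, relative to the WT mean, was 0.060 in A14, 0.018 in A15, 0.217 in A17, 0.113 in A18 and 0.070 in A9, and -0.048 to 0.094 in the WT hearts. A17 and A18 were above all WT hearts and the other 3 were not. In Dp1Tyb compared to the same WT hearts, the median was 0.104, with 7 of the 39 genes increased and 1 decreased. Of all genes outside the region, 2.62% were called in that comparison, in either direction. Between the duplication genotypes 0 of 39 were called, with a median of -0.022, against 1.16% of all genes tested.

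Bst2, which codes for the antiviral membrane protein tetherin, was at 7.31, 6.86, 7.42, 7.4 and 7.26 in A14, A15, A17, A18 and A9, and at 6.83, 7.05 and 7.39 in WT. A15 was near the lowest WT heart, and A17 and A18 were above all WT hearts. Its log2 fold change was 0.20 with A15 and 0.29 without, 1.15-fold and 1.23-fold (adjusted P-values 0.403 and 0.0226). Rtp4, another gene of the list, was at 0.25 and 0.28 (adjusted P-values 0.108 and 0.0553). Outside the list, Gbp6 of the guanylate-binding protein family was at 0.20 and 0.24 (adjusted P-values 0.13 and 0.0307). Lgals9, galectin 9, was at 9.44, 9.43, 9.61, 9.57 and 9.42, and at 9.12, 9.21 and 9.46 in WT. It was called in both fits, at 0.24 and 0.26 (adjusted P-values 0.0224 and 0.023), and not with lane in the fit (adjusted P-value 0.129). Of 13 antigen presentation genes, 0 were called in either fit, and 2 had an unadjusted P-value under 0.05 in each.

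The core of the interferon-stimulated response element, GAAA followed after any 2 bases by a second GAAA, on either strand, was searched in the 300 bases around gene starts that RefSeq gives for GRCm38.p6, 250 before and 50 after. It was present for 3.99% of 27025 genes and for 14 of the 31 interferon-stimulated genes with such a window. Of the 54 genes called outside the region in either fit that have a window, 3 held it, Bst2, Lgals9 and Ifi205. Bst2 and Ifi205 were called without A15 alone. Among increased genes with a window, 1 of the 20 called with A15 and 3 of the 30 called without held it. Whether called genes hold the motif more often than all genes was not tested. Parts of the windows of Bst2 and Lgals9 before the start are shown, with the motif letters in capitals. In Bst2 (minus strand, chr8:71537562-71537627) there were 2 overlapping matches that begin 130 bases before the start, and in Lgals9 (minus strand, chr11:78984945-78985004) 1 match on the reverse strand, 55 bases before it. A match is a description of the letters and does not show binding.
Bst2: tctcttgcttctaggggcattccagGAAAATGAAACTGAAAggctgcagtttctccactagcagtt
Lgals9: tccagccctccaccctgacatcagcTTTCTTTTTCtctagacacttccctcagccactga

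Genes of the cell cycle, which the design singles out through DYRK1A, did not pass the test against WT. The unadjusted counts of these lists stand beside the 9.16% and 12.3% of all genes outside the region with and without A15. Of 44 two-copy DNA replication genes, 0 were called by limma with or without A15, with 2 and 5 at an unadjusted P-value under 0.05 and medians of 0.003 and 0.022. Of 47 mitosis genes, 0 were called, with 3 and 0 at an unadjusted P-value under 0.05 and medians of 0.021 and 0.007. For G1 cyclins, CDKs, their inhibitors and pocket proteins the call count was 0 of 30, with 4 and 3 at an unadjusted P-value under 0.05 and a median of 0.004 in both fits. In Dp1Tyb compared to the same WT hearts, 5 of the 44 replication genes, 19 of the 47 mitosis genes and 3 of the 30 G1 genes were decreased, with medians of -0.063, -0.099 and -0.030, while 2.62% of all genes outside the region were called in either direction. The difference between the duplication genotypes was called for 4, 19 and 2 genes of these lists with A15, and for 8, 16 and 3 without, all higher in Dp1TybDyrk1a+/+/-, against 1.16% and 1.31% of all genes in either direction. A15 itself was at -0.096 for replication genes and 0.089 for mitosis genes, compared to -0.034 to 0.049 and -0.028 to 0.056 in the other 4 hearts. Of 19 two-copy kinases and partners of DYRK1A, among them its paralogue Dyrk1b and the NFAT and calcineurin genes, 0 were called in either fit, with 2 at an unadjusted P-value under 0.05 in each. Rcan1, the calcineurin inhibitor within the duplication, increased by 0.38 (adjusted P-value 2.34e-05).

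The Dp1Tyb hearts allow the genes outside the region to be read side by side, with the caution that both comparisons use the same WT hearts. Most Dp1Tyb hearts were also in the female pattern, and most Dp1TybDyrk1a+/+/- and WT hearts were not. Of the 29 genes called in both fits, 20 were also called between Dp1Tyb and WT hearts, all with the same sign, and 9 were not. Of all genes outside the region, 2.62% were called between Dp1Tyb and WT hearts. The difference between the duplication genotypes was called for 4 of the 29 with A15, among them Gm8113, Igfbp2 and Chml, and for 3 of the 29 without. Of all genes tested, 1.16% with A15 and 1.31% without were called in that comparison. Igfbp2, an insulin-like growth factor binding protein, was at 9.33, 9.16, 9.21, 9.39 and 9.21 in A14, A15, A17, A18 and A9, at 9.34 to 9.48 in WT and at 9.40 to 9.51 in Dp1Tyb hearts. Its differences were -0.17 from WT and -0.20 from Dp1Tyb (adjusted P-values 0.00873 and 0.0156).

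Chml was at 0.15 compared to WT in Dp1TybDyrk1a+/+/- and at 0.01 in Dp1Tyb hearts, a difference of 0.135 (adjusted P-value 0.0461, and 0.072 without A15). By contrast, Vwf was at 0.33 and 0.47, Entpd1 at 0.23 and 0.26, Heph at 0.18 and 0.20, and Usp11 at -0.16 and -0.15 in Dp1TybDyrk1a+/+/- and Dp1Tyb hearts compared to WT. For none of these 4 was the difference between the duplication genotypes called by limma, with adjusted P-values from 0.177 to 0.962. That a difference was not called does not show that it was absent.

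A15 also moved several gene lists, which is why their values are given without it. The unadjusted counts of these lists stand beside 9.16% of all genes outside the region with A15 and 12.3% without. The 13 mitochondrially encoded protein genes had a median log2 fold change of 0.243 with A15 and 0.033 without. In either fit 0 of them were called, with 2 and 3 at an unadjusted P-value under 0.05. Their median was 1.149 above the WT mean in A15, -0.123 to 0.116 in the other 4 hearts and at most 0.528 in WT, in A10. The 82 nuclear respiratory chain subunits went the other way, at -0.246 in A15 and -0.006 to 0.112 in the other 4. Without A15, 80 of the 82 were above 0 with a median of 0.060, compared to 48.8% of all genes outside the region above 0. In either fit 0 were called, and 14 had an unadjusted P-value under 0.05 without A15. The 77 cytosolic ribosomal protein genes were likewise low in A15, by a median of 0.239 compared to the other 4 hearts, and none was called by limma in either fit (6 and 14 at an unadjusted P-value under 0.05). Of protein genes that set A15 apart from the other 4 hearts, Ttn, the titin gene, was at 16.15 in A15 and at 14.55 to 14.85 in these. The WT hearts ran from 14.36 to 15.94 at Ttn. Pgk1, a glycolytic kinase, was at 12.11 in A15, at 13.37 to 13.52 in the other 4 and at 12.67 to 13.54 in WT hearts. Processed and other pseudogenes made up 16% of the 489 genes far from the other 4 hearts and 3.14% of all genes tested.

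**Figure D5:**
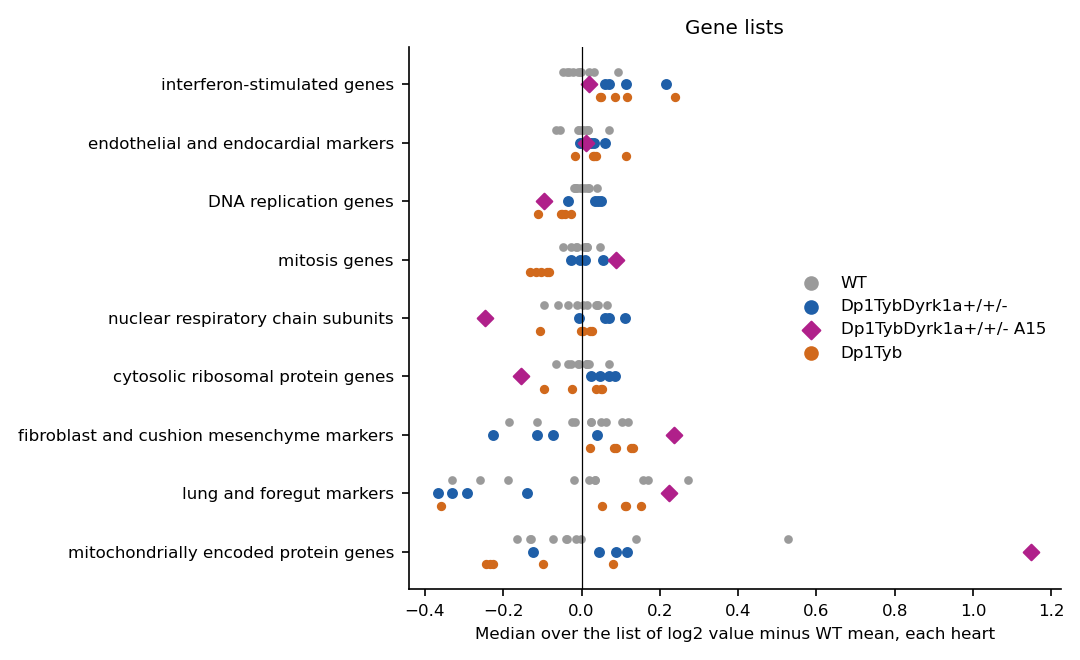
Median over each gene list of the log2 value minus the WT mean, for each WT heart (grey), each Dp1TybDyrk1a+/+/- heart (blue, A15 as a purple diamond) and each Dp1Tyb heart (orange). Mitosis genes lie below 0 in all Dp1Tyb hearts and around 0 in the Dp1TybDyrk1a+/+/- hearts, and A15 lies apart from its group for respiratory chain, ribosomal and mitochondrially encoded genes.

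None of the epicardium (13), fibroblast and cushion mesenchyme (19), smooth muscle (8), erythroid (13), macrophage (15), neuron and glia (10), lung and foregut (7) and liver (4) markers tested was called by limma in either fit. At an unadjusted P-value under 0.05 there were 0, 3, 1, 0, 2, 1, 0 and 1 of them with A15 and 0, 4, 3, 0, 1, 5, 7 and 1 without, against 9.16% and 12.3% of all genes outside the region. Without A15 all 7 lung and foregut markers and 5 of 10 neuron and glia markers were thus at an unadjusted P-value under 0.05. The lung and foregut markers were below WT at a median of -0.202 with A15 and -0.282 without. Their median was 0.224 above the WT mean in A15 and 0.138 to 0.366 below it in the other 4 hearts, and the WT hearts ran from -0.331 to 0.272. Fibroblast and cushion mesenchyme markers were at -0.029 with A15 and -0.101 without, and A15 was above the other 4 hearts at all 19 of them. The part of these cell types in the calls made without A15 was not tested. Of 22 cardiomyocyte markers 0 were called in either fit, with 2 at an unadjusted P-value under 0.05 in each, and of 17 immediate early genes 0 were called, with 1 in each.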

How the data were processed

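Hearts of E13.5 embryos of 3 genotypes were sequenced as mRNA libraries (KAPA mRNA HyperPrep, Illumina HiSeq). Per the submitters' processing notes the authors used Trimmomatic 0.36, STAR 2.5.2a, RSEM 1.2.31 and DESeq2 with GRCm38, and the roles, annotation and strand setting are not given in the sources used here. The authors deposited 1 table of log2 normalized counts for 48795 genes in 20 hearts, of which 19473 were at 0 in every heart. The spread of low values shrinks as in a regularized log transformation. Because no counts were used, depth is unknown and no count model was fitted.

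Groups came from the genotype labels. Genes were named by GENCODE M39 (44565 matched) and placed by RefSeq on GRCm38.p6 (32665). Genes whose normalized count averaged 10 or more over 20 hearts were tested with limma 3.58.1 in R 4.3.3 (trend, 20 hearts, 1 mean per genotype), with Benjamini-Hochberg adjustment, and the fit was repeated without A15. The code was tested on simulated data. Near-identical transcripts were searched with blastn 2.17.0 (at least 80 bases, 95% identity). Named genes were Dyrk1a, the 10 three-copy genes with the largest called change, the 5 most strongly expressed that were not called, the largest called changes outside the region, called list members and genes that mark embryo sex, of which a few are not reported here. Other genes, such as Clic6, Calcrl, Ggta1, Pspc1, Hexa, Eif5a2, Rtp4, Ttn and Pgk1, were chosen after their values were seen. The comparison, members and gene lists were chosen with earlier results of these data known. Alternatives were the filter, normalization, covariates for lane and Xist, weights per heart, other limma settings and leaving out hearts.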

Additional observations from a re-analysis of the deposited data

Results flagged for a closer look

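Of 160 sets of values examined, each 1 gene or list median in 1 genotype, 26 had a heart far from the others by Dixon's criterion. Chance alone meets it in about 1 set in 20. The sets are not independent and some genes were chosen by their calls without A15, so the 26 cannot be weighed against this rate. Heart A15 was that heart in 8 of the 26 and heart A10 in 6. Among Dp1TybDyrk1a+/+/- hearts, A15 stood apart in log2 value at Gabpa (11.85), Hmgn1 (12.78), Slc16a12 (9.77) and Pcdh1 (8.73). Slc16a12 and Pcdh1 were named because they were called without A15 alone, which largely fixes that A15 lies apart at them. It also stood apart in the list median relative to WT for liver markers (0.095), antigen presentation (-0.116), mitochondrially encoded protein genes (1.149) and cytosolic ribosomal protein genes (-0.154). Among WT hearts, A10 stood apart at Gabpa (11.39), Mrpl39 (9.97), Hmgn1 (12.50), Vwf (9.92) and Entpd1 (9.24), and in the median of mitochondrially encoded protein genes (0.528). A9 did so at Btg3 (9.34) and Gm7334 (8.85) among Dp1TybDyrk1a+/+/- hearts. Other WT hearts far from their group were A20 at Cxadr (11.64), A19 at Runx1 (6.87) and Bst2 (7.39), and A2 in the medians of epicardium (-0.136) and erythroid markers (-1.347). A14 was far from the other Dp1TybDyrk1a+/+/- hearts at Xist (13.31) and at the Y-linked genes Kdm5d (7.19), Uty (7.02), Ddx3y (7.69) and Eif2s3y (7.38). These flags all belong to the female pattern of this heart.

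The genes for which limma called a difference between the Dp1TybDyrk1a+/+/- and Dp1Tyb genotypes, with all hearts, included Clic6, as given above, and 4 genes chosen by the rule for named genes. The log2 difference was -0.248 for Mrap, 0.135 for Chml, -0.198 for Gm8113 and -0.199 for Igfbp2, with adjusted P-values of 0.000523, 0.0461, 0.0174 and 0.0156.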

How the results depend on the processing

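The count of three-copy genes called stayed between 66 and 69 when each heart was left out, and the Dyrk1a log2 fold change between 0.373 and 0.411. The number of genes outside the region was less firm: 40 became 26 with lane as covariate, 269 with weights per heart, 142 without A15 and A10, and 22 to 89 with single hearts left out. The total of 109 became 341 with weights, 212 without A15 and A10, and 88 to 158 with single hearts left out. Without A15, the total of 139 became 392 with weights and 94 to 212 with a further heart left out, and the 70 genes outside the region became 40 with 14 hearts in the fit, 320 with weights, 30 without A17, 29 without A18 and 142 without A10; these alternatives were chosen after seeing the data, except the one without A10. The three-copy median of 0.328 was 0.273, 0.366 and 0.092 with a count minimum of 1, of 100 and none, 0.290 and 0.305 within lanes 3 and 7, and 0.315 to 0.332 with single hearts left out. Gm9843 changed sign, from -0.051 to 0.032 with weights, 0.042 without A15 (range -0.109 to 0.042 with single hearts left out) and 0.022 without A15 and A10. Of the Y-linked genes, Kdm5d went to -0.003 with lane, Ddx3y to -0.006 with Xist, and Eif2s3y to -0.043 with Xist and -0.032 with lane; none was called in the fit with all hearts. The causes were not tested. Of 54 named genes, many of which were not called in the first place, the call was lost for 7 with lane as covariate. These were Lgals9, Mmrn2, Ache, Chml, Clec14a, Farsa and Eno1, all outside the three-copy region. With Xist as covariate the call was lost for 1, Eno1. Of the 29 genes outside the region called with and without A15, 20 were called with lane in the fit. No paired analysis was possible because the labels give no replicate number that is shared between genotypes. Depth is unknown, so its limit on weakly expressed genes could not be set.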
